A study of Mus musculus with 10 samples.

Results

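The nuclear genes for the subunits of the mitochondrial respiratory chain were followed through embryonic stem cells, resting lymphocytes and cultured T helper cells of the mouse. Members were all genes whose symbol begins with Nduf followed by a, b, c, s or v and a digit (complex I), is Sdha, Sdhb, Sdhc or Sdhd (complex II), begins with Uqcr (complex III), begins with Cox and a digit from 4 to 8 (complex IV), or begins with Atp5 (complex V), and that had an FPKM of at least 1 in at least 2 of 10 libraries. FPKM is a fragment count scaled by transcript length and by the mapped fragments of the library, so levels are per length. Of 83 genes with such a symbol 80 passed, and Cox7b2, Cox8b and Cox8c did not. The 80 members are 36 genes of complex I, 4 of complex II, 8 of complex III, 15 of complex IV and 17 of complex V, out of 12907 genes tested and 19025 genes listed. The nearest gene outside the limit, Cox7b2, reached 0.69 and 1.08 FPKM in ES, and the nearest inside, Cox4i2, 2.57 and 2.81 in ES. Cox4i2 and Ndufa4l2 passed through their level in ES alone, so they had to differ from the other groups. The subunits encoded by mitochondrial DNA do not carry these symbols and were not analysed here.

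Complexes I and II pass electrons from NADH and succinate to ubiquinone, complex III passes them on to cytochrome c, and complex IV passes them to oxygen. Complexes I, III and IV pump protons across the inner mitochondrial membrane, and complex V, the ATP synthase, uses the gradient to make ATP. Resting lymphocytes are known for small mitochondrial mass, and activation of T cells is known to enlarge it, while embryonic stem cells are known for a strong reliance on glycolysis.

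RNA of 5 groups of cells was sequenced, with 2 libraries each, and all cells were of the C57BL/6 background. The embryonic stem cells (ES) were the line B6N-22, grown on mitomycin-treated mouse embryonic fibroblasts with fetal bovine serum and 1000 units/ml of leukaemia inhibitory factor. B cells (B) and CD4 T cells (CD4T) were purified from the spleens of mice 6 to 8 weeks old with magnetic beads, to a stated purity above 98%. T helper 2 cells (Th2) were CD4 T cells cultured for 5 days with IL-2 at 15 ng/ml and IL-4 at 10 ng/ml. In the last group (Th2-TSA) such cultures received trichostatin A, an inhibitor of histone deacetylases, at 10 nM on day 2 for the remaining 3 days. Separate animals or cultures are not named in the labels for the pairs of libraries, and every p-value below therefore rests on library-to-library spread alone, which could be technical.

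The ES pair, the B pair and the CD4T pair of libraries differed little (SD of the log2 ratio 0.034, 0.035 and 0.037 over genes at 10 FPKM or more). Their spread fell with level and transcript length nearly as sampling of reads at a single depth would give, since the depth it implied varied only 1.51, 1.11 and 1.24 times between classes of level, so each pair was averaged and counted as 1 sample. The corresponding SD was 0.260 for Th2 and 0.297 for Th2-TSA, where the implied depth varied 17.2 and 22.2 times, and these stayed as n = 2 each. The deposited tables give no counts, so the depth behind a value is unknown. The 4 Th2 and Th2-TSA tables repeat a single value over all transcripts of nearly every gene, whereas the 6 others give a value per transcript, so the making of the tables and the cells cannot be told apart between Th2 and CD4T or ES. Pluripotency markers summed to between 2826.9 and 2829.2 FPKM in ES and to at most 2.8 elsewhere, with all 8 at 1 FPKM or more only in ES. Fibroblast markers of the feeder kind summed to between 1152.7 and 1160.5 FPKM in ES, with 8 of 8 at 1 FPKM or more, and to at most 7.2 elsewhere. All 8 B cell markers and all 8 T cell markers were present in B and in the 3 T cell groups, respectively. In CD4T the B cell list still summed to between 275.7 and 279.8 FPKM, against between 4925.0 and 4928.2 in B. The part of feeder and other cells in the values below was not tested.

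Respiratory chain transcripts were abundant in every group, and their summed level differed most between resting lymphocytes and the other cells. The 80 members summed to 10837.1 and 10831.9 FPKM in the 2 ES libraries, 5287.6 and 5290.4 in B, 5964.9 and 5951.9 in CD4T, 11844.9 and 13423.1 in Th2, and 14112.8 and 15596.4 in Th2-TSA. The resting B and CD4 T cells were therefore the lowest and the Th2-TSA libraries the highest, with no overlap between groups. As a share of all FPKM in a library the members took 2.74% in ES, 1.49% in B, 1.64% in CD4T, 2.94% ± 0.11 (SD, n = 2) in Th2 and 3.25% ± 0.11 (SD, n = 2) in Th2-TSA. The median member stood at 95.5 and 95.4 FPKM in ES, 55.3 and 54.4 in B, 60.5 and 61.2 in CD4T, 100.8 and 117.9 in Th2, and 123.4 and 137.8 in Th2-TSA. The median over all genes tested lay between 7.76 and 11.4 FPKM in the same libraries. Fewer cells of a type and less RNA per cell cannot be told apart in bulk samples.

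**Figure D1:**
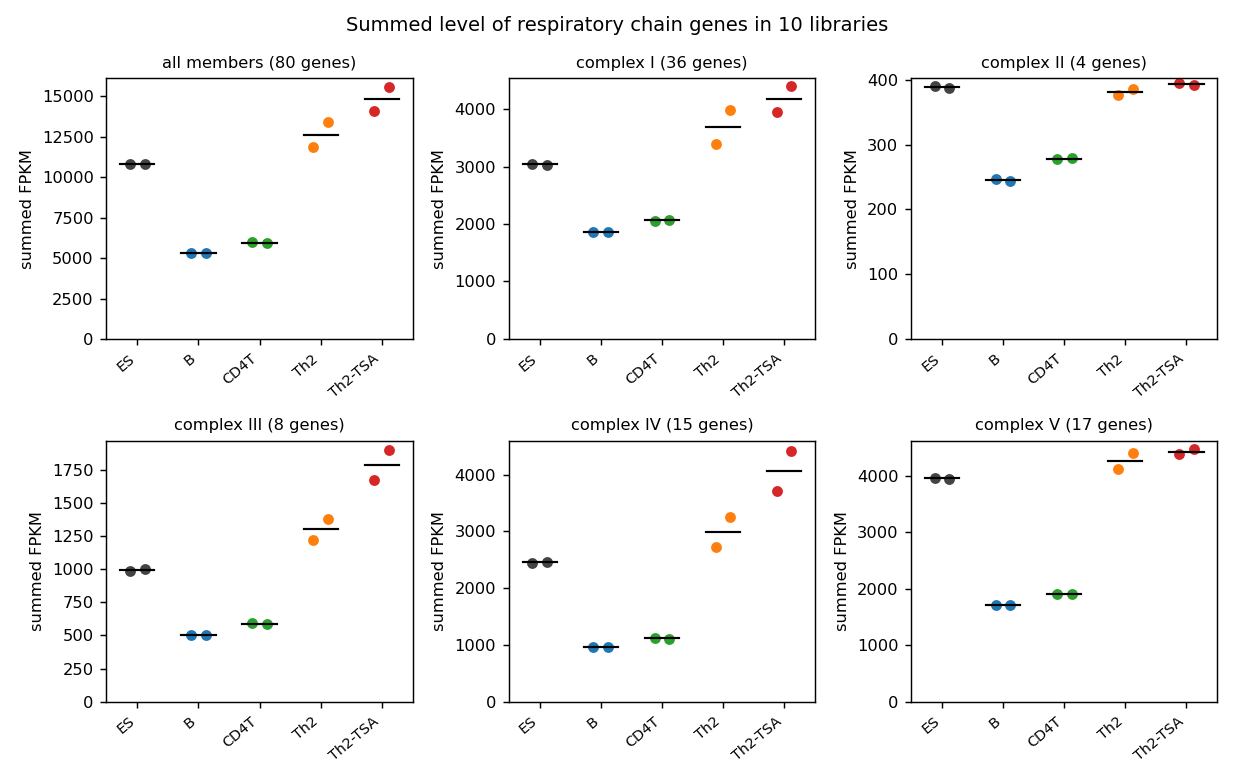
Summed FPKM of the members of each complex in the 10 libraries (points) with the group mean (line); the y axis starts at 0 and the x axis gives the 5 groups. B and CD4T were the lowest groups in every panel, and Th2-TSA had the highest mean in every panel.

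The 5 complexes did not keep the same proportions across the groups. Complex I summed to 3038.0 FPKM in ES, 1863.7 in B, 2063.0 in CD4T, 3691.7 ± 420.7 (SD, n = 2) in Th2 and 4184.5 ± 317.3 (SD, n = 2) in Th2-TSA. Complex II, whose 4 subunits also serve the citrate cycle, moved within the narrowest range: 389.0 FPKM in ES, 246.0 in B, 278.4 in CD4T, 381.7 ± 6.6 (SD, n = 2) in Th2 and 393.9 ± 1.4 (SD, n = 2) in Th2-TSA. Complex III summed to 994.7 FPKM in ES, 503.7 in B, 587.8 in CD4T, 1301.4 ± 114.1 (SD, n = 2) in Th2 and 1785.8 ± 160.5 (SD, n = 2) in Th2-TSA. The widest range was that of complex IV, cytochrome c oxidase. It summed to 2452.1 FPKM in ES, 966.3 in B, 1120.0 in CD4T, 2989.7 ± 378.9 (SD, n = 2) in Th2 and 4060.2 ± 505.0 (SD, n = 2) in Th2-TSA. Complex V summed to 3960.6 FPKM in ES, 1709.2 in B, 1909.4 in CD4T, 4269.5 ± 195.7 (SD, n = 2) in Th2 and 4430.2 ± 67.6 (SD, n = 2) in Th2-TSA. The 16 members listed as the core (among them Ndufs1, Ndufv1, the 4 Sdh genes, Uqcrfs1, Uqcrc1, Atp5a1 and Atp5b) did not follow the whole. They summed to 2801.9 and 2800.2 FPKM in ES, 1958.3 and 1977.2 in Th2, 1846.2 and 1763.2 in Th2-TSA, 1356.7 and 1358.8 in CD4T, and 1246.4 and 1246.2 in B. ES was the highest group for the core and Th2-TSA for the other 64 members, at 12266.6 and 13833.2 FPKM against 8035.2 and 8031.6 in ES. The core list holds no member of complex IV, so core membership and complex go together in part. It also leaves out Cyc1, cytochrome c1 of complex III, which was counted with the partners of the chain.

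The ES cells were compared with B and CD4 T cells, the contrast of a pluripotent line with resting lymphocytes that the series draws. Most members were lower in the lymphocytes, and complexes IV and V more so than complexes I and II. With 1 sample a side after averaging there is no replicate check and no test. Members were counted by size, as a difference of at least 1 in log2(FPKM + 1) where the group with more had at least 5 FPKM. By that rule 28 of 80 members were lower and 2 higher in CD4T than in ES, where 23.3% of all genes were lower and 19.3% higher. In B against ES 38 members were lower and 3 higher, with 25.0% of all genes lower and 17.5% higher. Both lower counts include Ndufa4l2, which passed the FPKM limit through ES alone and so had to be lower. The median member differed by -0.76 in CD4T and -0.95 in B on the log2(FPKM + 1) scale, beside -0.16 and -0.30 over all genes tested. The 2 comparisons share the ES libraries. The order ES above CD4T above B held for 62 of 80 members (77.5%), and for 29.7% of all genes. Cox4i2, which also passed the limit through ES alone, is among the 62.

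By complex, 9 of 36 members of complex I, 1 of 4 of complex II, 4 of 8 of complex III, 8 of 15 of complex IV and 6 of 17 of complex V were lower in CD4T than in ES by this rule. Of all genes 23.3% were lower, so the shares of complexes I and II lay near that of all genes. The complex I count includes Ndufa4l2, which had to be lower. The ES sum was 1.47 times that of CD4T for complex I, 1.40 times for complex II, 1.69 times for complex III, 2.19 times for complex IV and 2.07 times for complex V. Against B the corresponding ratios were 1.63, 1.58, 1.98, 2.54 and 2.32.

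The ATP synthase held the most abundant single member of the set in ES. Atp5b, the catalytic β subunit, stood at 1049.3 and 1043.0 FPKM in ES, 258.3 and 259.4 in B, 293.8 and 291.3 in CD4T, 578.6 and 553.5 in Th2, and 467.2 and 406.3 in Th2-TSA. ES held 3.58 times the FPKM of CD4T for this gene and 4.04 times that of B. Its partner Atp5a1, the α subunit, followed the same order, with 527.8 and 523.8 FPKM in ES, 183.8 and 184.0 in B, and 206.5 and 208.9 in CD4T. Atp5g3, a gene for the c subunit of the membrane rotor, stood at 496.0 and 490.0 FPKM in ES against 149.9 in each library of B and 185.1 and 184.6 in CD4T. Ndufa4, counted with complex I by its symbol but known as a subunit of complex IV, was at 262.1 and 257.6 FPKM in ES, 115.2 and 114.8 in B, and 131.0 and 124.7 in CD4T. Among the small subunits of complex IV, Cox5a was at 271.0 and 271.3 FPKM in ES, 68.5 and 67.0 in B, and 80.5 and 76.5 in CD4T, a ratio of 3.45 to CD4T.

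Complex I split between subunits that followed the ES-high order and subunits that did not. Ndufc1 (84.8 and 84.2 FPKM in ES, 28.3 and 25.4 in CD4T) and Ndufs6 (103.1 and 103.9 in ES, 31.6 and 34.4 in CD4T) were accessory subunits with ES levels 3.15 and 3.14 times those of CD4T. Core subunits of the hydrophilic arm, which carries the flavin and the iron-sulphur clusters, went both ways. The ES level was 1.85 times that of CD4T for Ndufv1 and 1.66 times for Ndufs1. Ndufs7 was at 78.9 and 80.9 FPKM in ES, 76.0 and 73.7 in B, and 73.6 and 76.1 in CD4T. Ndufs3 was lower in ES, at 49.3 and 50.9 FPKM, than in B at 60.0 and 64.7 or CD4T at 60.9 and 61.8. Sdha, the flavoprotein of complex II, was at 115.0 and 114.4 FPKM in ES, 87.0 and 87.1 in B, and 93.7 and 91.6 in CD4T. Uqcrh, the hinge protein of complex III, was at 185.7 and 183.8 FPKM in ES and 188.0 and 180.7 in CD4T, and these values overlap.

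**Figure D2:**
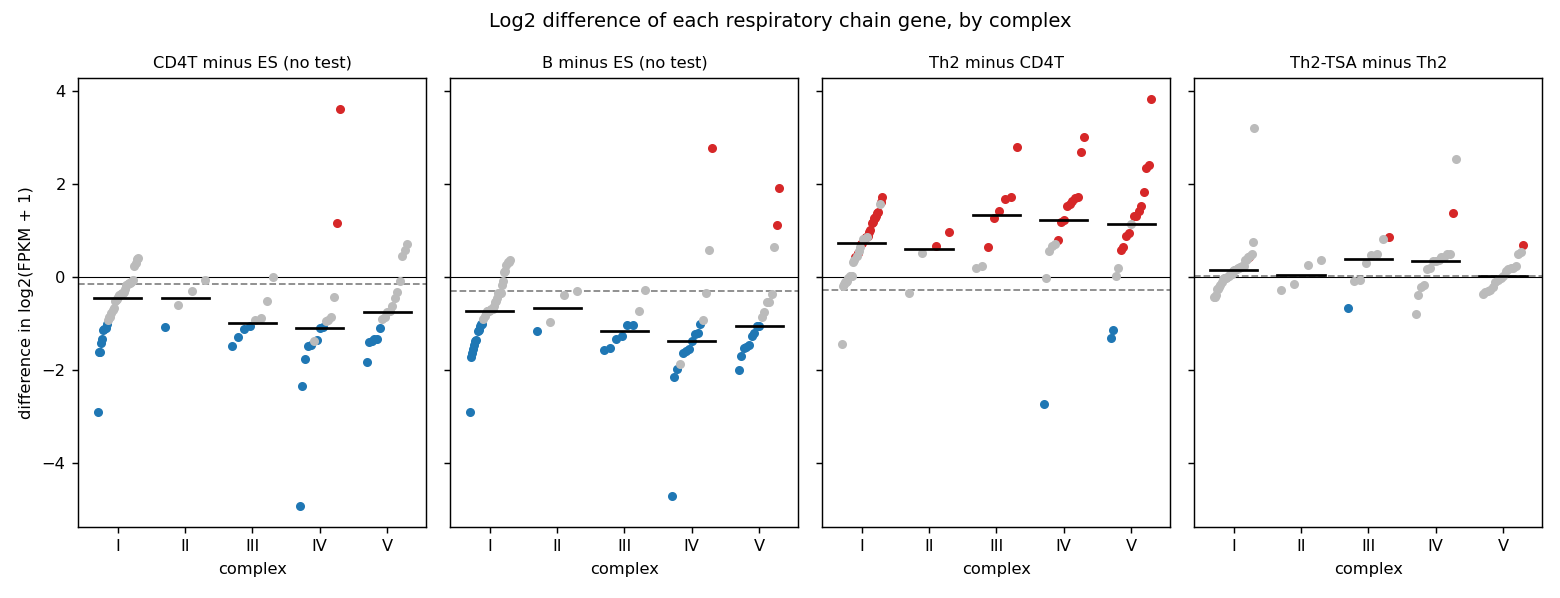
Difference in log2(FPKM + 1) of each member (points, ordered within a complex), with the median of the complex (bar) and of all genes tested (dashed line), in 4 comparisons; red points were called higher and blue points lower. The 2 panels on the left use the size rule, the 2 on the right limma at an adjusted p below 0.05; the highest grey point of complex I in the Th2-TSA panel is Ndufs5, which is listed at 0 in a Th2 library. Blue points outnumber red ones in the ES panels, and red points are the most frequent in the panel of Th2 minus CD4T, where the complex medians lie between 0.59 and 1.34.

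Among isoforms known from particular tissues, Cox6b2 and Cox7a1 were higher in ES than in B and CD4T, and the levels of Ndufa4l2 and Cox4i2, which passed the FPKM limit through ES alone, are given as a description. Cox6b2, known as the testis isoform of the subunit whose common form is Cox6b1, was at 72.6 and 77.6 FPKM in ES and at 1.79 and 2.04 in B, 1.42 and 1.55 in CD4T, 14.6 and 24.4 in Th2, and 85.7 and 151.7 in Th2-TSA. It made up 22.5% and 23.9% of Cox6b FPKM in ES, between 1.06% and 1.69% in B and CD4T, 4.05% and 5.68% in Th2, and 14.8% and 21.5% in Th2-TSA. The difference from ES was -4.94 for CD4T and -4.71 for B on the log2 scale. Ndufa4l2, a paralogue of Ndufa4 known for induction by hypoxia, was at 6.55 and 6.66 FPKM in ES and at most 0.05 in the other libraries. Cox7a1, known as the heart and muscle form of its subunit, was at 15.3 and 17.3 FPKM in ES, between 2.26 and 3.11 in B and CD4T, 3.11 and 6.18 in Th2, and 3.29 and 2.95 in Th2-TSA. Cox4i2, known from lung and for induction by low oxygen, was at 2.57 and 2.81 FPKM in ES and at most 0.60 elsewhere. Of the 5 muscle markers examined 1 was at 1 FPKM or more in ES, and the list summed to between 18.7 and 19.9 FPKM there.

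The promoters of the Cox6b pair are shown because these genes code for the same subunit position while their levels followed different patterns over the groups. Both lie on mouse chromosome 7, and the windows run from 250 bases before to 50 bases after the start in RefSeq on build GRCm38.p6: Cox6b1 at chr7:30626065-30626364 and Cox6b2 at chr7:4753045-4753344, both on the minus strand and printed 5′ to 3′. They were searched on both strands for 4 motifs of factors linked to mitochondrial genes: GCGCA and GCGC with any base between them (NRF1), CCGGAAGT (GABPA), TCAAGGTCA (ERR) and AAGATGGCG (YY1). No match lies in these 2 windows, so no base is in capitals.
Cox6b1: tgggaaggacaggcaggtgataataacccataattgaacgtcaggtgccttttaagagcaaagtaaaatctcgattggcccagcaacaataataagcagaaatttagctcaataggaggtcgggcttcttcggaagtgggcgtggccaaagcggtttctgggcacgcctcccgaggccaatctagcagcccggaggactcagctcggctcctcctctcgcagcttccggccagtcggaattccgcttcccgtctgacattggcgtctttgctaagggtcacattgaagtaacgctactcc
Cox6b2: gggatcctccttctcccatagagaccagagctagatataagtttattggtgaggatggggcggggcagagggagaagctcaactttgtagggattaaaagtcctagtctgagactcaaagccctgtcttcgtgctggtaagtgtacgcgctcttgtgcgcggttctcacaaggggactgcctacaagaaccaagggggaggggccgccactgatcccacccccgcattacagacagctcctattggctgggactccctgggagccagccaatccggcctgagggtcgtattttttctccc

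Promoter windows were found for 66 of 80 members. NRF1 letters occurred in 16 of 66 member genes (24.2%), beside 5.19% of all genes in the table and 10.9% of the genes tested here. GABPA letters occurred in 5 members (7.6%, beside 4.31% of all genes and 8.74% of those tested), YY1 letters in 8 (12.1%, beside 1.64% and 3.37%), and ERR letters in 2 (3.0%, beside 0.47% and 0.31%). NRF1 matches fell in complexes I, II, III, IV and V, for example in Ndufa8, Sdha, Uqcrc1, Cox6a1 and Atp5k. Of the 27 members with any of the 4 motifs 15 were called higher in Th2 than in CD4T and 1 lower by limma at an adjusted p below 0.05, and of the 39 with none 26 were higher and 1 lower, where 16.9% of all genes were higher and 38.1% lower. A match is a description of letters in the window and not of binding.

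A few members ran against the order and were higher in lymphocytes. Cox6a2, the heart and muscle isoform of Cox6a, was at 11.8 and 11.3 FPKM in CD4T, 6.14 and 5.96 in B, 0.03 in each ES library, 1.33 and 0.51 in Th2, and 0.00 and 0.16 in Th2-TSA. Its locus overlaps that of Itgad, an integrin gene of myeloid cells, which was at 24.4 FPKM in each CD4T library, 9.55 and 9.61 in B and at most 0.04 in the other libraries. The list of 7 myeloid markers summed to between 455.0 and 460.2 FPKM in CD4T, with 7 of 7 at 1 FPKM or more, between 173.5 and 174.9 in B, between 6.0 and 6.8 in Th2, and between 3.3 and 3.6 in Th2-TSA. The muscle list reached no more than 1.1 FPKM in CD4T, with no marker at 1 FPKM or more and 2 at 0. The part of Itgad reads or of myeloid cells in the Cox6a2 level was not tested. Cox7a2l, whose product is known to join complexes III and IV into supercomplexes, and of which C57BL/6 mice are known to carry a short form, was at 43.2 and 42.1 FPKM in ES, 63.8 and 64.1 in B, and 96.0 and 96.9 in CD4T. Atp5s, coupling factor B, and Atp5sl, a related gene also named Dmac2 and known from the assembly of complex I, were higher in B than in ES. Atp5s stood at 12.2 and 12.7 FPKM in B and 5.08 and 5.35 in ES. Atp5sl stood at 60.4 and 59.4 FPKM in B, 15.1 and 15.4 in ES, and 25.3 and 25.7 in CD4T.

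B cells and CD4 T cells differed little from each other in this gene set. Of 80 members 1 was lower and 0 were higher in CD4T by the size rule, where 4.39% of all genes were lower and 6.63% higher. This member was Atp5sl, with a difference of -1.20. CD4T nevertheless stood above B for 67 of 80 members (83.8%), beside 57.3% of all genes, with a median difference of 0.14 beside 0.05 over all genes. The sum was 1.13 times higher in CD4T, and between 1.11 and 1.17 times higher in each complex. The sign of that small median depended on scaling, since it was -0.02 with median-ratio scaling of the libraries. Ndufv3, an accessory subunit at the tip of complex I, was at 107.7 and 109.6 FPKM in CD4T and 58.9 and 61.6 in B, and it had the largest positive difference of the 80, at 0.84.

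**Figure D3:**
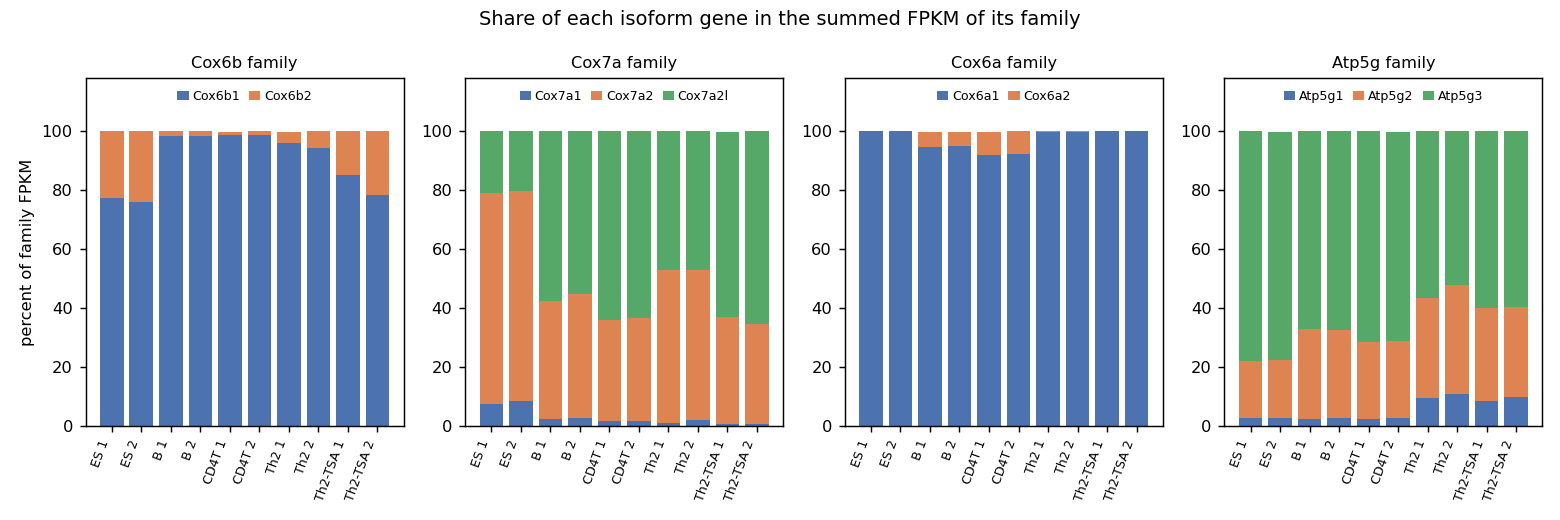
Percent of the summed FPKM of 4 isoform families taken by each gene, in the 10 libraries (x axis, replicate number after the group). Cox6b2 took between 14.8% and 23.9% of its family in ES and Th2-TSA and at most 5.68% in the other libraries.

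Th2 cultures were compared with freshly purified CD4 T cells, which addresses the change with activation and Th2 culture. Members of every complex rose, with the largest changes in Atp5g1, a gene for the c subunit of complex V, and in the small subunits Cox6b2 and Uqcr11, and most core subunits of complex I were not called. Of 80 members 48 were higher in Th2 and 3 lower by limma at an adjusted p below 0.05, beside 16.9% of 12367 genes higher and 38.1% lower. The median member differed by 0.85 on the log2(FPKM + 1) scale, and the median of all genes by -0.28. In 64 of 80 members (80.0%) both Th2 libraries lay above both CD4T libraries, beside 31.0% of all genes. The calls comprised 18 of 36 members of complex I, 2 of 4 of complex II, 6 of 8 of complex III, 10 of 15 of complex IV and 12 of 17 of complex V. The Th2 sum was 1.79 times that of CD4T for complex I, 1.37 times for complex II, 2.21 times for complex III, 2.67 times for complex IV and 2.24 times for complex V. When a Th2 library was left out, fewer members and also fewer of all genes were called in each direction. The members' median was then 0.995 (without Th2 replicate 1) or 0.804 (without Th2 replicate 2). Scaling moved the median of all genes from -0.28 to -0.04 (median-ratio) or 0.02 (quantile), and the members' median was 1.21 and 0.71 under these scalings, so the members stood above all genes by 1.14 as deposited, by 1.25 and by 0.69.

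In complex V all 3 genes for the c subunit rose, and Atp5g1 had the largest difference of the complex. Atp5g1 was at 5.45 and 6.62 FPKM in CD4T, 85.3 and 114.2 in Th2, and 71.8 and 90.6 in Th2-TSA, with 17.1 and 17.3 in ES. It rose by 3.83 (SE 0.27, adjusted p = 0.0043, limma). Atp5g2 rose from 68.3 and 67.6 FPKM to 309.5 and 387.2 (log2 difference 2.33, adjusted p = 0.00473, limma). Atp5g3 rose from 185.1 and 184.6 FPKM to 515.3 and 545.3 (log2 difference 1.52, adjusted p = 0.00416, limma). The 3 genes encode the same mature c subunit, and the share of Atp5g1 in their sum was 2.11% and 2.56% in CD4T and 9.38% and 10.9% in Th2. Atp5g1 and Atp5g2 have near-identical pseudogene copies elsewhere in the genome, so their reads could be divided differently in the 2 kinds of table. Atp5l, the g subunit, rose by 2.40 (SE 0.16, adjusted p = 0.00408, limma), from 42.6 and 41.1 FPKM to 214.6 and 235.6. It has 9 near-identical copies, of which 8 are pseudogenes. The catalytic pair rose less: Atp5b by 0.95 (SE 0.14, adjusted p = 0.0158) and Atp5a1 by 0.64 (SE 0.15, adjusted p = 0.0448), both by limma. Atp5c1, the γ subunit between them, had 154.6 and 156.5 FPKM in CD4T and 160.0 and 154.1 in Th2, and these values overlap.

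Complexes III and IV rose in most of their members. Uqcr11, a small subunit of complex III, went from 23.4 and 23.0 FPKM in CD4T to 145.0 and 192.0 in Th2 (log2 difference 2.80, SE 0.29, adjusted p = 0.00799, limma). Uqcr10 rose by 1.71 (SE 0.13, adjusted p = 0.00502, limma), from 71.5 and 70.6 FPKM to 222.0 and 248.6. Uqcrfs1, the Rieske iron-sulphur protein, rose from 43.8 and 42.8 FPKM to 97.9 and 112.8 (log2 difference 1.26, adjusted p = 0.0155, limma). The large core proteins of the same complex were not called: Uqcrc1 was at 83.6 and 84.2 FPKM in CD4T and 93.3 and 102.9 in Th2, and Uqcrc2 at 79.0 and 78.6 and at 97.1 and 83.5. Uqcrc1 was called with median-ratio scaling (log2 difference 0.58, adjusted p = 0.0296, limma), with centring by transcript length (0.57, adjusted p = 0.02), and with 10 separate libraries without the replicate block (adjusted p = 0.00981) and with it (adjusted p = 0.0153). In complex IV, Cox6b2 rose by 3.00 (SE 0.53, adjusted p = 0.0232, limma), from 1.42 and 1.55 FPKM to 14.6 and 24.4. Cox5b, which has 1 near-identical copy, rose by 2.69 (SE 0.30, adjusted p = 0.0089, limma), from 30.1 and 29.1 FPKM to 165.4 and 231.8. Cox4i1, the common form of the largest nuclear subunit, went from 223.5 and 223.6 FPKM to 512.3 and 535.2 (log2 difference 1.22, adjusted p = 0.00578, limma). Cox7a2l was at 96.0 and 96.9 FPKM in CD4T and 136.8 and 147.4 in Th2, above it in both libraries, but was not called (adjusted p = 0.053, limma).

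In complex I both accessory and core subunits rose. Ndufc1 had the largest difference among its called members, 1.71 (SE 0.15, adjusted p = 0.0062, limma), from 28.3 and 25.4 FPKM to 81.8 and 98.6. Ndufa1, a membrane-arm subunit, rose by 1.60 (SE 0.21, adjusted p = 0.0127, limma), from 50.4 and 50.7 FPKM to 141.6 and 171.0. Of the core subunits of complex I, Ndufv1, which binds the flavin and NADH, rose by 0.42 (adjusted p = 0.0307, limma) and Ndufs8 by 0.85 (adjusted p = 0.0249, limma). Ndufs1, Ndufs3, Ndufs7 and Ndufv2 were not called, with log2 differences between -0.15 and 0.02. Ndufs1, the largest iron-sulphur subunit, was at 36.1 and 37.4 FPKM in CD4T and 37.4 and 30.8 in Th2. Ndufs5 was listed at 0.00 in Th2 replicate 1 and at 33.6 in Th2 replicate 2, against 15.1 and 15.0 in CD4T, so no mean is given for it. In complex II the iron-sulphur subunit Sdhb (0.67, adjusted p = 0.0132, limma) and the membrane anchor Sdhd (0.97, adjusted p = 0.00655, limma) rose, while Sdha stood at 76.0 and 69.3 FPKM in Th2, below both CD4T libraries, with an adjusted p of 0.158. In all, 7 of the 16 core members and 41 of the other 64 were called higher, beside 16.9% of all genes. Their medians were 0.32 and 1.07, and the difference between these 2 counts was not tested. Among transcripts of 1000 bases or more the counts were 6 of 14 core members and 5 of 14 others.

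The 3 members called lower were Cox6a2, with a log2 difference of -2.74 (SE 0.33, adjusted p = 0.0103, limma), Atp5s with -1.31 (SE 0.21, adjusted p = 0.0179, limma) and Atp5sl with -1.14 (SE 0.16, adjusted p = 0.0143, limma). Atp5s was at 7.97 and 6.96 FPKM in CD4T and 2.33 and 2.48 in Th2, and Atp5sl at 25.3 and 25.7 and at 9.98 and 12.1. The lower level of Cox6a2 in Th2 went with the lower myeloid list and Itgad given above, and with a pseudocount of 0.1 its adjusted p was 0.0518 (limma), against 0.0103 with a pseudocount of 1.

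Genes around the chain did not all move with it. Among 17 carriers and partners 11 were higher in Th2 and 0 lower, where 16.9% of all genes were higher and 38.1% lower. At an unadjusted p below 0.05 the limma counts were 12 and 0, beside 2439 and 5264 of 12367 genes. Cycs, cytochrome c itself, went from 3.32 and 3.09 FPKM in CD4T to 37.7 and 36.1 in Th2 (log2 difference 3.17, adjusted p = 0.00237, limma). Slc25a5, an ADP/ATP carrier, went from 63.0 and 63.9 FPKM to 520.0 and 522.1 (3.02, adjusted p = 0.00097, limma). Atpif1, the inhibitor of the ATP synthase, rose from 42.7 and 40.7 FPKM to 194.1 and 192.8 (2.19), Vdac1, a channel of the outer membrane, by 1.82, and Cyc1, cytochrome c1 of complex III, by 0.56.

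Assembly factors showed no such majority. For complex I, 0 of 13 assembly factors were higher and 3 lower (unadjusted, 0 and 7), with Ndufaf5 at 9.12 and 9.06 FPKM in CD4T and 3.40 and 2.69 in Th2. For complex IV, 3 of 19 were higher (Cox17, Coa3 and Coa4) and 4 lower (Sco2, Cox10, Cox20 and Cmc1). Sco2, which delivers copper to the oxidase, fell by 2.11 on the log2 scale (SE 0.13, adjusted p = 0.00354, limma), from 21.4 and 22.1 FPKM to 4.0 and 4.59. For complex III, Uqcc2 rose by 0.88 and Lyrm7 fell by 0.92, and the 3 others were not called. For complex II, Sdhaf1 fell by 0.83, and of the 4 assembly factors of complex V 0 were called in either direction by limma, with 0 higher and 1 lower at an unadjusted p below 0.05. Among 18 regulators of mitochondrial gene expression and DNA maintenance 1 was higher (Mterf1a) and 10 lower, where 16.9% of all genes were higher and 38.1% lower. Polg2, the accessory subunit of the mitochondrial DNA polymerase, fell by 2.02, Esrra by 1.26, Ppargc1b by 1.24 and Nrf1 by 0.58. Pprc1 was at 19.2 and 19.3 FPKM in CD4T and 27.6 and 20.5 in Th2, and Tfam at 18.8 in each CD4T library and 17.7 and 16.4 in Th2, and neither was called. Of 18 citrate cycle genes 4 were higher, among them Cs and Idh3a, and 1 lower (Dlst). Of 17 genes for handling of leaked electrons and for quinone synthesis 4 were higher, among them Sod1 (1.82) and Ucp2 (1.07), and 3 lower, among them Coq2 (-1.64). The mitochondrial ribosome had 34 higher and 6 lower of 76.

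**Figure D4:**
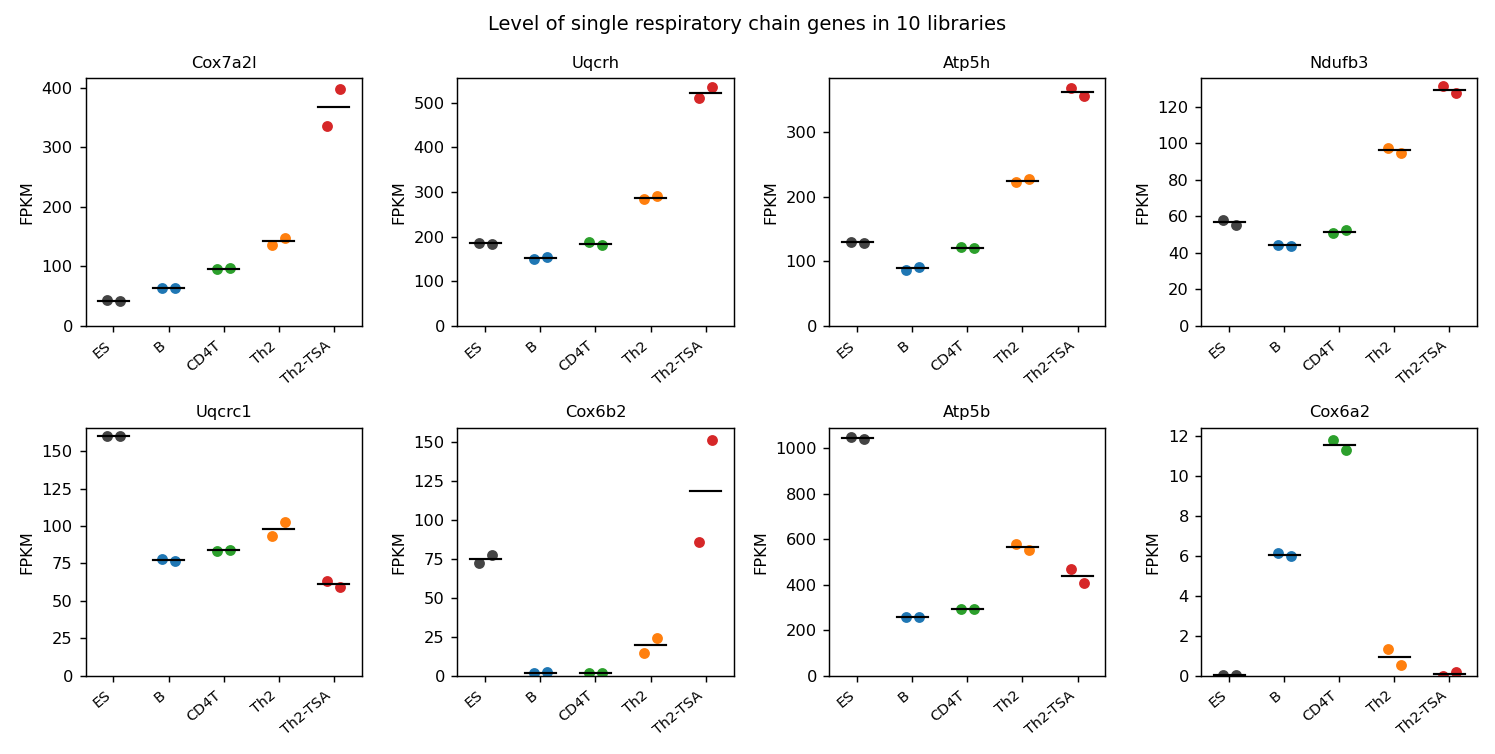
FPKM of 8 members in the 10 libraries (points) with the group mean (line); each y axis starts at 0. The Th2-TSA points lie above all others for Cox7a2l, Uqcrh, Atp5h and Ndufb3 and below all others for Uqcrc1.

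Trichostatin A was tested by comparing Th2-TSA with Th2, 2 libraries each. Few members were called, and in each direction their share lay below that of all genes. The limma test with 2 libraries a side could miss small changes, so a member without a call was not shown to be unchanged. Of 80 members 4 were higher (Cox7a2l, Uqcrh, Atp5h and Ndufb3) and 1 lower (Uqcrc1) by limma at an adjusted p below 0.05, beside 9.26% of 12907 genes higher and 4.14% lower. The 4 higher members are 5.0% of the set and the 1 lower member 1.25%. The counts were 20 higher and 2 lower with the replicate block, and 30 and 15 with 10 separate libraries. The counts over all genes are not given here for these 2 settings. At an unadjusted p below 0.05 the member counts were 20 and 5, beside 2906 and 1856 of the 12907 genes tested. The median member differed by 0.17 beside 0.02 over all genes, and by 0.03 when differences were centred by transcript length. Leaving out Th2 replicate 1, Th2 replicate 2, Th2-TSA replicate 1 or Th2-TSA replicate 2 left 0 members called in each case by limma, with 5 higher and 5 lower, 11 and 2, 12 and 3, and 7 and 1 at an unadjusted p below 0.05. The same omissions left between 0 and 259 genes higher and between 0 and 14 lower over all genes tested. This comparison shares the Th2 libraries with the previous one.

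Cox7a2l had the largest called change. It was at 136.8 and 147.4 FPKM in Th2 and 336.2 and 398.3 in Th2-TSA, a difference of 1.36 (SE 0.12, adjusted p = 0.0324, limma). It took 47.0% of Cox7a FPKM in each Th2 library and 62.9% and 65.6% in Th2-TSA, beside 64.2% and 63.5% in CD4T, 57.6% and 55.4% in B, and 21% and 20.3% in ES. Uqcrh rose from 284.3 and 290.9 FPKM to 509.8 and 535.3, by 0.86 (SE 0.07, adjusted p = 0.0308, limma). Atp5h, the d subunit of the stator stalk, rose from 222.4 and 228.2 FPKM to 369.6 and 356.0, by 0.69 (SE 0.06, adjusted p = 0.0328, limma). Ndufb3 of the membrane arm of complex I rose from 97.6 and 94.6 FPKM to 131.1 and 127.4, by 0.42 (SE 0.06, adjusted p = 0.0419, limma). It was not called when differences were centred by transcript length (0.28, adjusted p = 0.212, limma) or with no filter (adjusted p = 0.0519, limma). Uqcrc1 went from 93.3 and 102.9 FPKM to 63.3 and 59.0, a difference of -0.67 (SE 0.09, adjusted p = 0.04, limma), and its adjusted p was 0.0588 with no filter and 0.0564 with the replicate block (limma). Near-identical copies exist for Atp5h (4), Cox7a2l (1) and Ndufb3 (1), and none was found for Uqcrh and Uqcrc1.

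The promoters of 4 of the 5 called members are shown, those of Cox7a2l, Uqcrh, Atp5h and Uqcrc1. Of these genes, Uqcrh and Uqcrc1 belong to the same complex but moved in opposite directions. They lie at chr17:83514284-83514583 (Cox7a2l, minus strand), chr4:116075021-116075320 (Uqcrh, minus strand), chr11:115419870-115420169 (Atp5h, minus strand) and chr9:108936398-108936697 (Uqcrc1, plus strand) of GRCm38.p6 in RefSeq. Capitals mark motif matches on either strand: GABPA letters in Uqcrh, NRF1 and GABPA letters in Atp5h, and a pair of NRF1 matches in Uqcrc1. Cox7a2l holds none of the 4 motifs, and neither does the window of Ndufb3, the remaining called member, which is not printed.
Cox7a2l: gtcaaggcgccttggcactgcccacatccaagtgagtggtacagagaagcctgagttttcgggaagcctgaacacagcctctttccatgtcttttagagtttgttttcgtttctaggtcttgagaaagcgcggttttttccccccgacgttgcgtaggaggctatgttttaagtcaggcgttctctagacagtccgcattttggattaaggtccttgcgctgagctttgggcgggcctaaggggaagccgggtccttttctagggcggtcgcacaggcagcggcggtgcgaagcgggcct
Uqcrh: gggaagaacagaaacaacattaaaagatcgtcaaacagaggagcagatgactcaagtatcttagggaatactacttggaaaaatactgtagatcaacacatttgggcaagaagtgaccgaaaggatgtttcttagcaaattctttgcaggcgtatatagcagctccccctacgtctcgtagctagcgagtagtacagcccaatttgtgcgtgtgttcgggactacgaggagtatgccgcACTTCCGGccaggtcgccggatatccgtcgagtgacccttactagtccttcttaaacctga
Atp5h: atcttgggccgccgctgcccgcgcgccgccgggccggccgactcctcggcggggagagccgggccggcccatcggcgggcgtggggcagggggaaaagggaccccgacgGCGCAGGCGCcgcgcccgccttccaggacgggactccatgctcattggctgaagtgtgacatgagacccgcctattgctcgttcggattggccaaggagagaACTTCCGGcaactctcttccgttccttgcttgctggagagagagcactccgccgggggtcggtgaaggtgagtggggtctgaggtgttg
Uqcrc1: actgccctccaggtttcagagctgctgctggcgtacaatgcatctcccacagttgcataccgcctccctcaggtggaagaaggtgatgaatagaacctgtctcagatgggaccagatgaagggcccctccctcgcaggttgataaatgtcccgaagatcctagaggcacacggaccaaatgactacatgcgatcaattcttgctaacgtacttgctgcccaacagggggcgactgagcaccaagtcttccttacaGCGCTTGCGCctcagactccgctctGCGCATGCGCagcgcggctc

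The members were also counted by the overlap of their libraries. Both Th2-TSA libraries lay above both Th2 libraries in 32 of 80 members and below them in 15, where 36.7% of all genes lay above and 27.1% below. Among the 16 core members 4 lay above and 9 below, and among the other 64 members 28 lay above and 6 below, and the difference between these counts was not tested. Among transcripts of 1000 bases or more 4 core members lay above and 7 below, of 14, and 5 others above and 3 below, of 14. The core sum was 0.92 times that of Th2 and the sum of the others 1.22 times. Such sums weigh members by level, and Atp5b and Atp5a1, the core members with the highest levels, were both lower in Th2-TSA. The core sum without them is not given here, so the ratio does not describe the core as a whole. Atp5b was at 578.6 and 553.5 FPKM in Th2 and 467.2 and 406.3 in Th2-TSA (adjusted p = 0.125, limma). Atp5a1 was at 332.5 and 313.8 FPKM in Th2 and 285.0 and 238.2 in Th2-TSA, Ndufs1 at 37.4 and 30.8 and at 29.4 and 22.0, and Sdha at 76.0 and 69.3 and at 65.3 and 53.9. None of the 3 was called, with adjusted p between 0.191 and 0.255 (limma). On the other side, Uqcrfs1 was at 97.9 and 112.8 FPKM in Th2 and 167.3 and 205.1 in Th2-TSA, with an adjusted p of 0.0609 (limma), while Uqcrc2 overlapped, at 97.1 and 83.5 FPKM in Th2 and 95.5 and 77.3 in Th2-TSA.

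Complex III and complex IV had the largest ratios of sums. The Th2-TSA sum was 1.13 times that of Th2 for complex I, 1.03 times for complex II, 1.37 times for complex III, 1.36 times for complex IV and 1.04 times for complex V. Of 15 members of complex IV 10 lay above Th2 in both libraries and 1, Cox6a2, below, where 36.7% of all genes lay above and 27.1% below. Cox6a2 was low throughout, at 1.33 and 0.51 FPKM in Th2 and 0.00 and 0.16 in Th2-TSA. Cox6a1 was at 397.1 and 508.2 FPKM in Th2 and 559.4 and 715.8 in Th2-TSA, and Cox4i1 at 512.3 and 535.2 and at 647.5 and 678.8. Neither was called, with adjusted p of 0.205 and 0.0919 (limma). Cox6b2 had a larger difference than any called member, 2.54 (SE 0.43), from 14.6 and 24.4 FPKM to 85.7 and 151.7, and its adjusted p was 0.0552 (limma). Over 13 alternatives with all libraries that p ranged from 0.000204 to 0.0887 (limma), with 5 of them below 0.05, and over the 4 that left out a library from 0.111 to 0.222 (limma). The pluripotency list summed to 0.4 FPKM in each Th2 library and between 2.1 and 2.7 in Th2-TSA, and the Th2 list to between 567.6 and 667.8 and between 658.1 and 904.1. In complex II 0 of 4 members were called by limma, with 2 higher and 0 lower at an unadjusted p below 0.05.

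Around the chain, 19 assembly factors of complex IV included 6 called higher (Cox17, Cox19, Cox20, Coa4, Coa5 and Taco1) and 1 lower (Sco2), where 9.26% of all genes were higher and 4.14% lower. Cox17, the copper chaperone of the oxidase, rose from 143.7 and 152.6 FPKM to 292.3 and 361.9, by 1.13 (SE 0.14, adjusted p = 0.0385, limma). Sco2, to which it passes copper, went from 4.0 and 4.59 FPKM to 1.39 and 1.32, a difference of -1.17 (SE 0.11, adjusted p = 0.0324, limma). Uqcc2, an assembly factor of complex III, was at 96.9 and 106.6 FPKM in Th2 and 54.2 and 48.3 in Th2-TSA, a difference of -0.98 (SE 0.10, adjusted p = 0.0336, limma), and Lyrm7 rose by 0.49. Of the assembly factors of complex I, Nubpl rose by 0.91 and Timmdc1 by 0.70. Of the carriers and partners 1 of 17 was called, Etfdh (0.71), which feeds electrons from fatty acid oxidation to ubiquinone. Cs, citrate synthase, rose from 111.3 and 110.2 FPKM to 155.5 and 154.8 (0.48, adjusted p = 0.0354, limma), the only citrate cycle gene called among 18. Of the regulators Tfb1m rose by 0.74 and Polg, the catalytic subunit of the mitochondrial DNA polymerase, fell by 0.85. Txnrd2, mitochondrial thioredoxin reductase, fell by 1.15 and was the only call among 17 genes of electron leak and quinone synthesis. The mitochondrial ribosome had 3 higher and 0 lower of 76, and 8 and 9 at an unadjusted p below 0.05 (limma).

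The members have short transcripts, and short transcripts differed between the cultures as a class. The median annotated length was 760.5 bases for the members and 2889 for all genes tested, and 52 of 80 members were under 1000 bases. Among other genes at a mean of 10 FPKM or more, the median difference between Th2 and CD4T was 0.80 under 700 bases, 0.43 from 700 to 1000, -0.01 from 1000 to 2000 and -0.37 at 2000 or more. The members' medians in these classes were 1.3, 0.85, 0.42 and 0.44, each above that of the other genes. Between Th2-TSA and Th2 the other genes' medians were 0.27, 0.16, 0.00 and -0.09 and the members' 0.33, 0.00, 0.15 and -0.29, above them in the shortest and in the 1000 to 2000 class and below them in the remaining ones. The core genes are longer, with a median of 1657 bases against 681.5 for the other members, so length and membership in the core go together. At 1000 bases or more, 14 core members had a median of 0.32 between Th2 and CD4T and the 14 other members 0.47, and between Th2-TSA and Th2 these medians were -0.12 and 0.18. Cytosolic ribosomal protein genes, another class of short transcripts, took 17.1% and 18.7% of all FPKM in Th2, 22.0% and 22.4% in Th2-TSA, and between 8.51% and 12.1% in the other libraries. The part of transcript length in the differences between groups was not tested beyond the centring by length. With that centring 59 members were higher and 3 lower in Th2 than in CD4T, and the counts over all genes are not given here. The median was then 0.81 for the members and 0.16 for all genes. The members thus stood above all genes by 0.65, against 1.14 without centring.

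**Figure D5:**
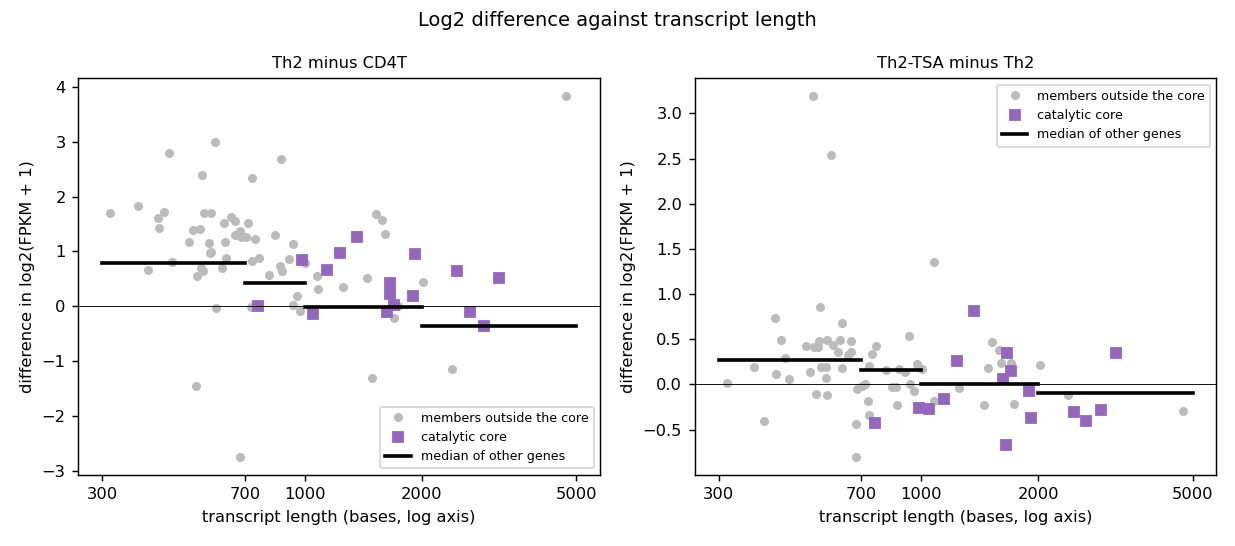
Difference in log2(FPKM + 1) of each member against its annotated transcript length in bases (log axis), for Th2 minus CD4T and Th2-TSA minus Th2; squares are core members, circles the others, and black lines the medians of other genes at a mean of 10 FPKM or more in 4 length classes. The medians of the other genes go from 0.80 to -0.37 on the left and from 0.27 to -0.09 on the right, and the highest circle on the right is Ndufs5.

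Of the 80 members 21 have a near-identical copy (at least 95% identity over at least 200 bases) among the transcripts annotated elsewhere. Between Th2 and CD4T 34 of the 59 members without such a copy were higher and 3 lower, and 14 of the 21 with a copy were higher and 0 lower. Of all genes 16.9% were higher and 38.1% lower. The loci of 27 members overlap another RefSeq locus, and counting by strand is not given in the sources used here.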

How the data were processed

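RNA of 10 mouse libraries (5 groups of 2) was made into TruSeq RNA v2 libraries and sequenced, per the labels' protocols. The authors deposited 1 table per library with an FPKM value for each of 21035 rows; per the submitters' processing notes the tools were Bowtie 0.12.8, TopHat 1.3.2 and Cufflinks 2.0.2 with the build mm10. The 315 rows with no symbol and the 30 with a date in its place were named by the RefSeq symbol of their transcript. Where there was none, the transcript identifier was used. The highest row per gene was then kept, which gave 19025 genes. Genes that reached 1 FPKM in 2 or more libraries went into limma 3.58.1 (R 4.3.3; lmFit and eBayes with trend) on log2(FPKM + 1), so that log2 differences understate changes of low genes. The ES, B and CD4T pairs entered as their means, which gave 7 samples. P-values were two-sided and adjusted by Benjamini-Hochberg over all genes tested; for Th2 against CD4T, genes at 0 throughout 1 kind of table were left out first. Comparisons among ES, B and CD4T used the size rule without a test. The script was tested on simulated data. For Th2-TSA minus Th2 it recovered 0% of 50 genes changed by 0.5 on the log2 scale and 56% of 50 changed by 1. At sizes of 2 and 3 it recovered 100%, and 4 unchanged genes were called.

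Promoters came from RefSeq (GRCm38.p6), transcript lengths and sequences from GENCODE M21, and near-identical copies from NCBI BLAST+ 2.17.0. Python 3.11.15 with pandas 2.3.3 did the rest. Named members were the 2 largest called increases and decreases per complex and comparison, the 16 core subunits, the isoform families, and up to 4 genes of each companion list; Atp5c1, Ndufs5, Ndufv3 and the promoter examples Ndufa8 and Atp5k, and companion genes beyond 4 per list, were named after their values were seen. The members and lists were chosen with earlier results of these data known. Alternatives were pseudocounts of 0.1 and 5, no filter, quantile and median-ratio scaling, sums or means of rows, no trend, only the compared groups, separate libraries, a replicate block, a stricter size rule of 2, and leaving out each library. Centring by transcript length, in place of a planned centring by protein length, and separate libraries with the block were chosen after seeing the data.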

Additional observations from a re-analysis of the deposited data

How the results depend on the processing

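Directions of the member medians held under every alternative run except 1: the CD4T minus B median of 0.14 was -0.017 with median-ratio scaling, and it was 0.126 with a pseudocount of 5, 0.06 with centring by transcript length, and from 0.13 to 0.151 when a CD4T or B library was left out. Counts for Th2-TSA against Th2 moved most. Counts over all genes are not given here for the block, separate libraries, quantile normalization or centring. The main counts of 4 higher and 1 lower became 9 and 3 with quantile normalization, 20 and 2 with the replicate block, 30 and 15 with 10 separate libraries and 33 and 16 with these and the block; lower was 0 with no filter (limma; 5 lower at an unadjusted p below 0.05) and 5 with centring by length, where the median was 0.029. Leaving out a Th2 or Th2-TSA library gave 0 higher and 0 lower, with medians from 0.051 to 0.207. The 5 called members stayed called in all 3 of quantile normalization, 10 separate libraries and median-ratio scaling. For Th2 minus CD4T the median was 0.706 with quantile normalization and 1.21 with median-ratio scaling; 5 were lower with 10 separate libraries, with or without the block; leaving out a library gave from 21 to 49 higher, from 1 to 3 lower, and medians from 0.804 to 0.995. The CD4T minus ES median was -0.773 and -0.72 with pseudocounts of 0.1 and 5, -0.699 with quantile normalization, -0.707 with median-ratio scaling, -0.751 with centring by length and from -0.773 (without CD4T replicate 2) to -0.765 (without ES replicate 2); the stricter size rule gave 1 higher and 3 lower. The B minus ES median was -0.851 with a pseudocount of 5, -0.844 with quantile normalization, -0.734 with median-ratio scaling and -0.827 with centring by length. The stricter rule gave 1 higher and 4 lower, and for CD4T minus B 0 lower. Ndufa4l2, which passed the FPKM limit through ES alone, is among the lower members of both comparisons with ES under this rule. Experiment numbers are shared by Th2 and Th2-TSA, and the deviations of same-numbered libraries correlated at 0.644 over 7041 genes and 0.713 over the 80 members, but with only 2 pairs and no label that names a shared batch the numbers were not taken as pairs. Under the block 4 of the 5 calls stayed, Uqcrc1 was lost (adjusted p = 0.0564, limma), and 18 were added. Depth is unknown, so no counting error can be given for low values.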
